A study of Mus musculus with 46 samples.

Results

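The genes described here are 37 enzymes and transporters of glycolysis below hexokinase, of lactate formation and export, of the pyruvate dehydrogenase step, of gluconeogenesis and of fructose use, measured in the intestine of mice given imeglimin or metformin. They were taken by symbol from count tables that hold 45777 symbols each, and all 37 were found in each of the 5 tables. Of the members, 7 act in upper glycolysis (Gpi1, Pfkl, Pfkm, Pfkp, Aldoa, Aldoc, Tpi1) and 9 in lower glycolysis (Gapdh, Pgk1, Pgam1, Pgam2, Eno1, Eno2, Eno3, Pkm, Pklr). Another 4 handle lactate (Ldha, Ldhb, Slc16a1, Slc16a3), 4 are the bifunctional enzymes that tune phosphofructokinase (Pfkfb1 to Pfkfb4) and 7 belong to the pyruvate dehydrogenase step (Pdha1, Pdhb, Dlat, Dld and the kinases Pdk1, Pdk2, Pdk3). The last 6 are the gluconeogenic enzymes G6pc, Fbp1, Fbp2, Pck1 and Pck2, and Khk of fructose use.

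Glycolysis splits glucose into pyruvate, which is either reduced to lactate in the cytosol and exported with a proton, or oxidised to acetyl-CoA by the mitochondrial pyruvate dehydrogenase complex. Phosphofructokinase is the main control point of the pathway, and pyruvate dehydrogenase kinases switch the mitochondrial route off by phosphorylating its E1 subunit. The gut is a tissue where metformin accumulates and where it raises the uptake of glucose. The small intestine also holds enzymes of gluconeogenesis and converts dietary fructose. Metformin is a biguanide, and imeglimin is a glucose-lowering drug of the tetrahydrotriazine class.

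All mice were male C57BL/6J. In the acute experiment, a single oral dose of 600 mg/kg of imeglimin or metformin was given and the colon was taken at 6 h, beside control mice. In the chronic experiment, imeglimin or metformin was given in drinking water at 3 mg/mL for 4 weeks, beside control mice, and the proximal, middle and distal parts of the small intestine and the colon were sampled. This gave 15 groups of 3 libraries, 45 in all, from whole-tissue poly(A) RNA. The labels do not say that the replicates of a group are separate animals, and the p-values therefore reflect library-to-library spread that may be technical. They name 1 strain and 1 sex, and give neither the age of the mice nor the control vehicle.

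Libraries held between 31606797 and 47324301 counts, and replicates differed beyond counting noise in every group. Levels are given as CPM, the reads of a gene scaled to a fixed library total, after scaling by the trimmed mean of M-values. Differences are log2 fold changes from the edgeR quasi-likelihood test with their standard error (SE), and a gene was called at an adjusted p under 0.05 over all genes tested in its table (17295 to 18665 genes). After the filter on low counts, 35 members were tested in the colon tables and 36 in the small intestine tables. The muscle isoform Pgam2 was left out in all of them, with at most 0.339 CPM in any library, and the glucose 6-phosphatase gene G6pc was left out in the colon, where no library held a read of it. Marker genes of the segments were summed per library, on the scale of each table. The summed level of 4 colon markers was 766 to 13600 CPM in colon libraries and at most 63.6 CPM in small intestine libraries. The summed level of 8 enterocyte markers, most of them genes of the small intestine, was at least 9146 CPM in small intestine libraries and at most 682 CPM in colon libraries. The 2 distal markers Slc10a2 and Fabp6 summed to 4138 to 9512 CPM in distal small intestine, and to 133 to 633 CPM in acute and 2.09 to 12.1 CPM in chronic colon. The 3 proximal markers Gata4, Slc40a1 and Cybrd1 did not set proximal small intestine apart from colon, with 105 to 147 CPM in the proximal libraries against 69.7 to 366 CPM in acute and 201 to 307 CPM in chronic colon. In bulk tissue, fewer cells of a type and less RNA per cell cannot be told apart.

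**Figure D1:**
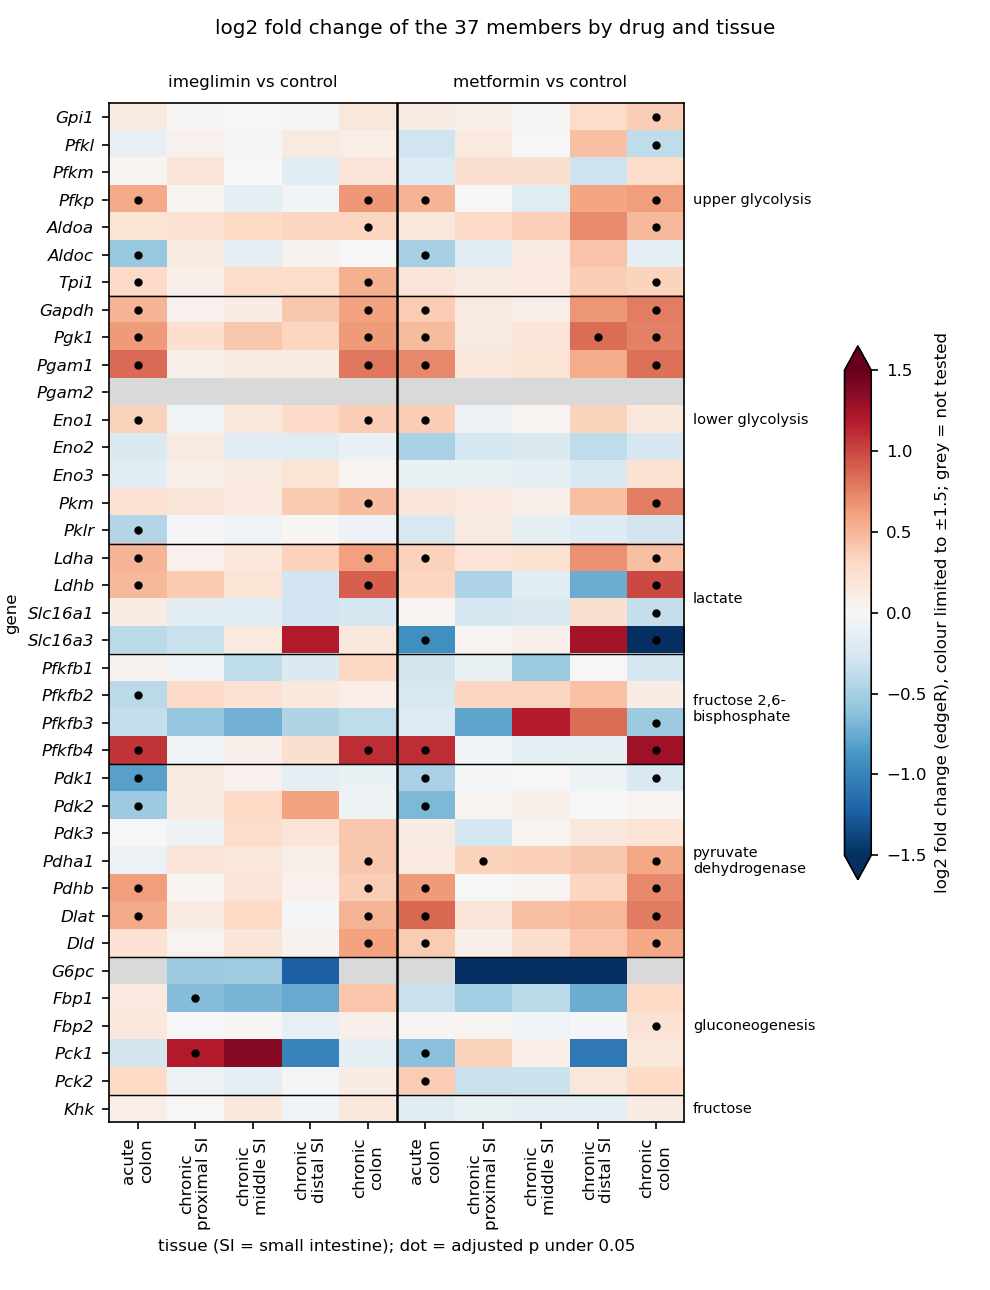
Log2 fold change of each of the 37 members (rows, grouped by role) against control, for imeglimin (left block) and metformin (right block) in the acute colon and the 4 chronic segments (columns). Dots mark an adjusted p under 0.05 and grey marks members that were not tested. Most dots lie in the colon columns, with 16 of 35 tested members called for each drug in acute colon, and 15 for imeglimin and 21 for metformin in chronic colon.

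Most calls lay in the colon, where Pfkp, Gapdh, Pgk1 and Pgam1 of glycolysis, Ldha, the regulator Pfkfb4 and the pyruvate dehydrogenase subunits Pdhb and Dlat rose with both drugs, after a single dose and after 4 weeks. In chronic colon, imeglimin raised 15 of the 35 members tested and no member was called lower, where 7.97% of all genes tested were called higher and 5.07% lower. Metformin raised 16 and lowered 5 members, where 11.6% of all genes were called higher and 8.04% lower (19.7% in either direction). The median log2 fold change over the members tested was 0.305 for imeglimin, against −0.017 over all genes, and 0.281 for metformin, against −0.047 over all genes. In acute colon, imeglimin raised 11 and lowered 5 members (18.1% and 15.1% of all genes, 33.3% in either direction), and metformin raised 11 and lowered 5 (11.3% and 8.37% of all genes, 19.7% in either direction). The acute medians over the members were 0.133 for imeglimin and 0.114 for metformin, against −0.03 over all genes for imeglimin and −0.037 for metformin. By role in chronic colon, imeglimin raised 3 of 7 upper glycolysis members, 5 of 8 tested in lower glycolysis, 2 of 4 of lactate handling, 1 of 4 bifunctional enzymes and 4 of 7 of the pyruvate dehydrogenase step, and none of the 4 gluconeogenic members tested or Khk. Metformin raised 4 and lowered 1 in upper glycolysis, raised 4 in lower glycolysis, raised 2 and lowered 2 of lactate handling, raised 1 and lowered 1 bifunctional enzyme, raised 4 and lowered 1 of the pyruvate dehydrogenase step and raised 1 gluconeogenic member. Both drugs were compared with the same control libraries within each experiment, so their values are given side by side.

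Pgk1, Ldha, Pgam1 and Pfkfb4 were among the members called higher with each drug in both colon experiments, and Slc16a3, which encodes a lactate exporter, was the 1 member called between the drugs in chronic colon. The promoters of these members are shown because a well-known signal of glycolytic genes is the core of the hypoxia response element, ACGTG or GCGTG. Each line gives the 150 bases just before the annotated start, 5′ to 3′ on the plus strand, from RefSeq on GRCm38.p6. The stretches are chrX:106186950-106187099 for Pgk1, chr7:46845654-46845803 for Ldha (the first of its 2 annotated starts), chr19:41911721-41911870 for Pgam1, chr9:108991752-108991901 for Pfkfb4 and chr11:120948917-120949066 for Slc16a3. Capitals mark the core on either strand, or 2 overlapping cores, which read CACGTG. The other members called higher in all of these comparisons are not printed. Their stretches held 3 cores for Pfkp, 2 for Gapdh, 1 for Pdhb and 0 for Dlat. The second Ldha start, also not printed, had 1 core, against 5 for the first.
Pgk1: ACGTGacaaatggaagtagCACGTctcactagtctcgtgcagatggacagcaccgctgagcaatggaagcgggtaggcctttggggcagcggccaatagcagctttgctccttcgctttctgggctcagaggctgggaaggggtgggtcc
Ldha: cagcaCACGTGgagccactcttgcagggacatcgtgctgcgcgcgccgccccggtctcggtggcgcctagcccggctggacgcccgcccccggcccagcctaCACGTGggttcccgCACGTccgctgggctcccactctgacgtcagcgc
Pgam1: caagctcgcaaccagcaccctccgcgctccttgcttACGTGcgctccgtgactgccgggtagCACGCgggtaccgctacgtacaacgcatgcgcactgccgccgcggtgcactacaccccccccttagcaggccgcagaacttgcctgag
Pfkfb4: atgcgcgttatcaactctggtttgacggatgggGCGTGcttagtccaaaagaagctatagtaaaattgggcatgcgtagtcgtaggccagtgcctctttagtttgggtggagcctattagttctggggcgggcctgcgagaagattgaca
Slc16a3: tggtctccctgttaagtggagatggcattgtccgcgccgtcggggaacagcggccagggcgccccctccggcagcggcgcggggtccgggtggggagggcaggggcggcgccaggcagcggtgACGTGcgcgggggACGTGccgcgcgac
Over windows of 300 bases, from 250 before to 50 after the start, searched on both strands, ACGTG or GCGTG was present in 27 of the 37 members (73%), against 46.7% of 27025 genes. A gene counted if any of its windows held the match, and a gene with several starts, such as Pfkm or Pfkfb1, has several windows. The shares were not matched for this, for base content or for expression in the gut. Over all 32851 windows the share was 43.8%. The single core ACGTG was present in 45.9% of members and 21.8% of genes. The E-box CACGTG, which holds ACGTG on each strand, was present in 8 members (21.6%) and in 8.09% of genes. The core of the amino acid response element, TGATGCA, was present in 1 member, G6pc (2.7%), and in 3.63% of genes. These matches describe the letters in the windows and were not tied to binding of any factor.

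Of the upper glycolysis members, Pfkp, the platelet-type subunit of phosphofructokinase, rose with each drug in both colon experiments. In chronic colon it measured 278, 282 and 368 CPM with imeglimin, 275, 332 and 306 CPM with metformin, and 192, 195 and 204 CPM in controls. Every treated library was above every control library, and the log2 fold change was 0.65 ± 0.12 (SE, adjusted p 0.00796) for imeglimin and 0.63 ± 0.12 (adjusted p 0.0052) for metformin. In acute colon the changes of Pfkp were 0.57 ± 0.11 (adjusted p 0.00218) for imeglimin and 0.51 ± 0.10 (adjusted p 0.00716) for metformin. The liver-type subunit Pfkl was called lower with metformin in chronic colon, at 177, 214 and 172 CPM with imeglimin, 143, 139 and 122 CPM with metformin, and 174, 185 and 165 CPM in controls. Metformin libraries were below all others, with a change of −0.38 ± 0.099 (adjusted p 0.0259), while imeglimin libraries overlapped controls at 0.10 ± 0.099 (adjusted p 0.554). The call on Pfkl was lost without control replicate 1 (adjusted p 0.0636), control replicate 2 (0.0833), metformin replicate 2 (0.0629) or metformin replicate 3 (0.0961). It was also lost in a fit of all 36 chronic libraries (0.0713).

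Aldoa, the muscle-type aldolase, rose in chronic colon with imeglimin (0.33 ± 0.063, adjusted p 0.0109, and 0.0544 without control replicate 3) and with metformin (0.49 ± 0.063, adjusted p 0.000936). Its level was 910 to 980 CPM with imeglimin, 999 to 1102 CPM with metformin and 746 to 755 CPM in controls, with no overlap. Tpi1, which interconverts the triose phosphates, rose in chronic colon with imeglimin (0.53 ± 0.068, adjusted p 0.00325) and with metformin (0.33 ± 0.068, adjusted p 0.00862). In acute colon Tpi1 was called for imeglimin (0.28, adjusted p 0.0416) and lost that call without control replicate 2 (0.0854) or 3 (0.155), without imeglimin replicate 2 (0.0982) or 3 (0.146) and with the replicate block (0.0734). Gpi1, which converts glucose 6-phosphate to fructose 6-phosphate, was called for metformin (0.37 ± 0.064, adjusted p 0.00413) and not for imeglimin (0.17 ± 0.064, adjusted p 0.121). The brain-type aldolase Aldoc fell in acute colon, to 11.5, 12.1 and 11.1 CPM with imeglimin and 11.5, 12.4 and 12.7 CPM with metformin, against 16.8, 17.8 and 17.0 CPM in controls. The groups did not overlap, and the changes were −0.57 ± 0.10 (adjusted p 0.00194) for imeglimin and −0.50 ± 0.10 (adjusted p 0.00746) for metformin. In chronic colon Aldoc stood at 0.00 ± 0.17 for imeglimin and −0.14 ± 0.17 for metformin. The muscle-type subunit Pfkm was called in no colon comparison with control.

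In lower glycolysis, Pgam1, Pgk1 and Gapdh rose with both drugs in both colon experiments. Pgam1, the phosphoglycerate mutase, had 218, 202 and 251 CPM with chronic imeglimin and 208, 258 and 227 CPM with chronic metformin, against 129, 133 and 128 CPM in control colon. Its means were 224 ± 25.1 CPM for imeglimin, 231 ± 25.3 CPM for metformin and 130 ± 2.81 CPM for controls (SD, n = 3 each). The lowest treated library lay well above the highest control, and the changes were 0.79 ± 0.10 (adjusted p 0.00329) for imeglimin and 0.83 ± 0.10 (adjusted p 0.000683) for metformin. In acute colon Pgam1 had 220, 253 and 228 CPM with imeglimin, 222, 208 and 212 CPM with metformin, and 126, 138 and 125 CPM in controls. These changes were 0.85 ± 0.089 (adjusted p 0.000102) for imeglimin and 0.72 ± 0.089 (adjusted p 0.000446) for metformin, of about the same size as after 4 weeks.

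Pgk1, the phosphoglycerate kinase that makes the pathway's earliest ATP, had 298, 332 and 375 CPM with chronic imeglimin, 331, 420 and 344 CPM with chronic metformin, and 206, 222 and 219 CPM in controls. The changes were 0.64 ± 0.11 (adjusted p 0.0072) for imeglimin and 0.76 ± 0.11 (adjusted p 0.00152) for metformin, with no overlap of treated and control libraries. In acute colon Pgk1 had 299, 409 and 367 CPM with imeglimin, 331, 302 and 326 CPM with metformin, and 244, 237 and 209 CPM in controls. The groups again did not overlap, at 0.64 ± 0.12 (adjusted p 0.00226) for imeglimin and 0.48 ± 0.12 (adjusted p 0.0175, and 0.0755 without control replicate 3) for metformin. Gapdh, the NAD-dependent step just before it, had 697, 814 and 888 CPM with chronic imeglimin, 866, 955 and 874 CPM with chronic metformin, and 548, 543 and 487 CPM in controls. Its changes were 0.60 ± 0.095 (adjusted p 0.0056) for imeglimin and 0.77 ± 0.096 (adjusted p 0.000759) for metformin. In acute colon Gapdh had 691, 865 and 859 CPM with imeglimin, 798, 734 and 675 CPM with metformin, and 615, 579 and 502 CPM in controls. Treated libraries again lay above all controls, at 0.51 for imeglimin (adjusted p 0.00796) and 0.38 for metformin (adjusted p 0.0464). The acute metformin call was lost without control replicate 2 (0.0965) or 3 (0.165), without metformin replicate 1 (0.122) or 2 (0.073) and with the replicate block (0.0756). Gapdh is often used to scale expression in other assays.

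**Figure D2:**
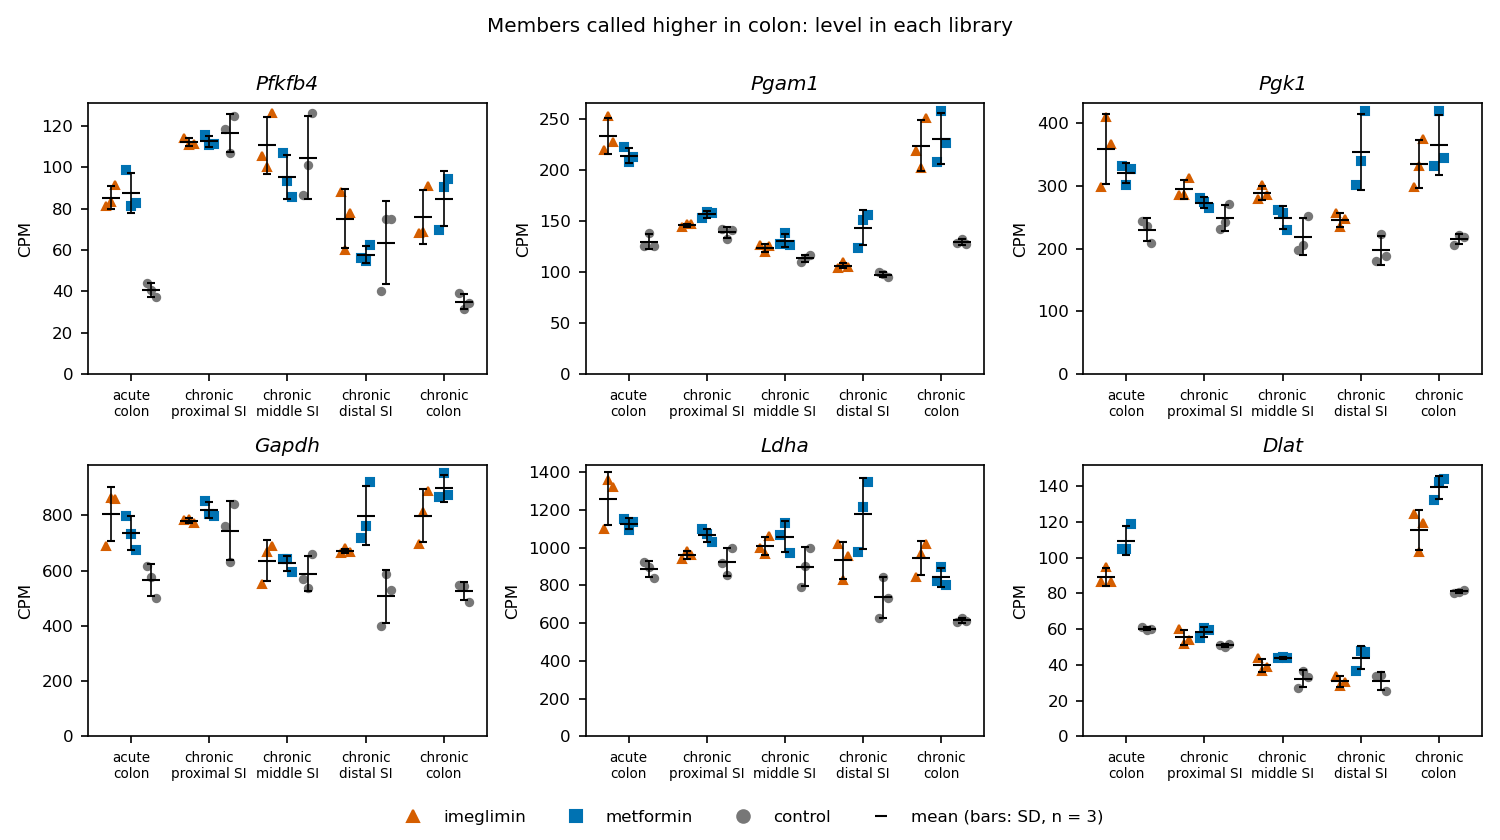
Level of Pfkfb4, Pgam1, Pgk1, Gapdh, Ldha and Dlat in CPM (vertical axis, from 0) in each library of the 5 tissues, with imeglimin (triangles), metformin (squares) and control (circles) side by side. Lines show the mean and bars the SD of 3 libraries. In acute and chronic colon all treated libraries of these genes lie above all control libraries, as for Pfkfb4 in chronic colon with 68.0 to 90.8 CPM for imeglimin and 69.6 to 94.2 CPM for metformin, against 31.7 to 39.1 CPM in controls.

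Pkm, the pyruvate kinase of most tissues, rose in chronic colon with imeglimin (0.46 ± 0.11, adjusted p 0.0261) and metformin (0.76 ± 0.11, adjusted p 0.00172). It was not called in acute colon at 0.23 ± 0.094 (adjusted p 0.0803) for imeglimin and 0.18 ± 0.094 (adjusted p 0.199) for metformin. The imeglimin call on Pkm was lost without control replicate 1 (adjusted p 0.0828), 2 (0.0592) or 3 (0.0955), or without imeglimin replicate 2 (0.0527). The liver-type pyruvate kinase Pklr fell in acute colon with imeglimin, to 59.2, 62.3 and 60.9 CPM, against 81.5, 89.4 and 77.0 CPM in controls (−0.44 ± 0.10, adjusted p 0.00701). With metformin it measured 62.4, 79.1 and 68.0 CPM and overlapped controls (−0.24 ± 0.10, adjusted p 0.115). Eno1, the common enolase, rose in acute colon with imeglimin (0.35 ± 0.095, adjusted p 0.0157) and metformin (0.37 ± 0.095, adjusted p 0.0208), and in chronic colon with imeglimin (0.37 ± 0.085, adjusted p 0.0209). For chronic metformin Eno1 stood at 0.16 ± 0.085 (adjusted p 0.202). Its acute calls were lost without control replicate 3 (0.0669 for imeglimin and 0.0859 for metformin), imeglimin replicate 2 (0.0692) or metformin replicate 1 (0.0646), and its chronic call without control replicate 1 (0.0789) or 3 (0.0722) or imeglimin replicate 2 (0.0759). The chronic Eno1 call also ended in a fit of all 36 chronic libraries (adjusted p 0.0522). The neuronal and muscle enolases Eno2 and Eno3 were called in none of these comparisons.

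Reads of processed copies limit what these values say of single loci. The copy Pgam1-ps2 held between 28.2% and 40.7% as many reads as Pgam1, Pgk1-rs7 5.1% to 9.18% as many as Pgk1, and Eno1b 2.4% to 5.71% as many as Eno1. The sources used here do not say how reads were shared between such copies. In the annotation, exons of Gpi1, Pfkm, Pfkp, Aldoa, Tpi1, Gapdh, Pklr, Pfkfb1, Pfkfb2, Pdha1 and Pck2 overlap a gene on the other strand. Exons of Pkm, Pfkfb2 and Pfkm overlap a gene on the same strand. The library kit keeps strand, and whether the counting used it is not given either.

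Lactate dehydrogenase rose in both of its subunits. Ldha, the form that dominates in glycolytic cells, had 846, 965 and 1021 CPM with chronic imeglimin, 822, 899 and 804 CPM with chronic metformin, and 606, 628 and 610 CPM in controls. No libraries overlapped, and the changes were 0.62 ± 0.081 (adjusted p 0.00354) for imeglimin and 0.45 ± 0.081 (adjusted p 0.00465) for metformin. In acute colon Ldha changed by 0.51 ± 0.10 (adjusted p 0.00321) with imeglimin and 0.35 ± 0.10 (adjusted p 0.0329) with metformin. The acute metformin call was lost without control replicate 2 (adjusted p 0.0815), control replicate 3 (0.119), metformin replicate 1 (0.0745) or metformin replicate 3 (0.0679), and with the replicate number as a block (0.0659). Ldhb, the heart-type subunit, had 18.01, 22.8 and 20.8 CPM with chronic imeglimin, 19.4, 25.8 and 20.5 CPM with chronic metformin, and 10.3, 10.1 and 12.8 CPM in controls. Treated libraries were all higher, with changes of 0.89 ± 0.14 (adjusted p 0.00621) for imeglimin and 0.98 ± 0.14 (adjusted p 0.00172) for metformin. In acute colon Ldhb was called for imeglimin (0.48 ± 0.15, adjusted p 0.0269) and not for metformin (0.32 ± 0.15, adjusted p 0.147). Leaving out any library of the controls, or imeglimin replicate 2 or 3, ended that call (adjusted p 0.055 to 0.111).

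The lactate exporter Slc16a3, the monocarboxylate transporter typical of cells that release lactate, did not follow the enzymes. In chronic colon it had 5.44, 15.2 and 4.56 CPM with imeglimin and 1.36, 1.18 and 0.812 CPM with metformin, against 4.40, 8.31 and 9.84 CPM in controls. Metformin libraries were below all others and imeglimin libraries spread over the control range. The change was 0.16 ± 0.45 (adjusted p 0.857) for imeglimin and −2.75 ± 0.50 (adjusted p 0.00487) for metformin. In acute colon Slc16a3 had 2.94, 2.26 and 1.83 CPM with imeglimin, 2.01, 1.51 and 1.41 CPM with metformin, and 3.85, 2.20 and 3.26 CPM in controls. The metformin change was −0.92 ± 0.28 (adjusted p 0.0385) and the imeglimin change −0.41 ± 0.27 (adjusted p 0.278). The acute call was lost without control replicate 1 (adjusted p 0.134), control replicate 3 (0.104), metformin replicate 2 (0.0844) or metformin replicate 3 (0.105). Slc16a1, the transporter of the colon that also carries butyrate, fell with chronic metformin, to 339, 321 and 337 CPM, against 440, 424 and 410 CPM in controls (−0.36 ± 0.10, adjusted p 0.0402). With chronic imeglimin it had 372, 404 and 294 CPM (−0.25 ± 0.10, adjusted p 0.144). The metformin call on Slc16a1 was lost when any single control or metformin library was left out (adjusted p 0.0748 to 0.135).

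**Figure D3:**
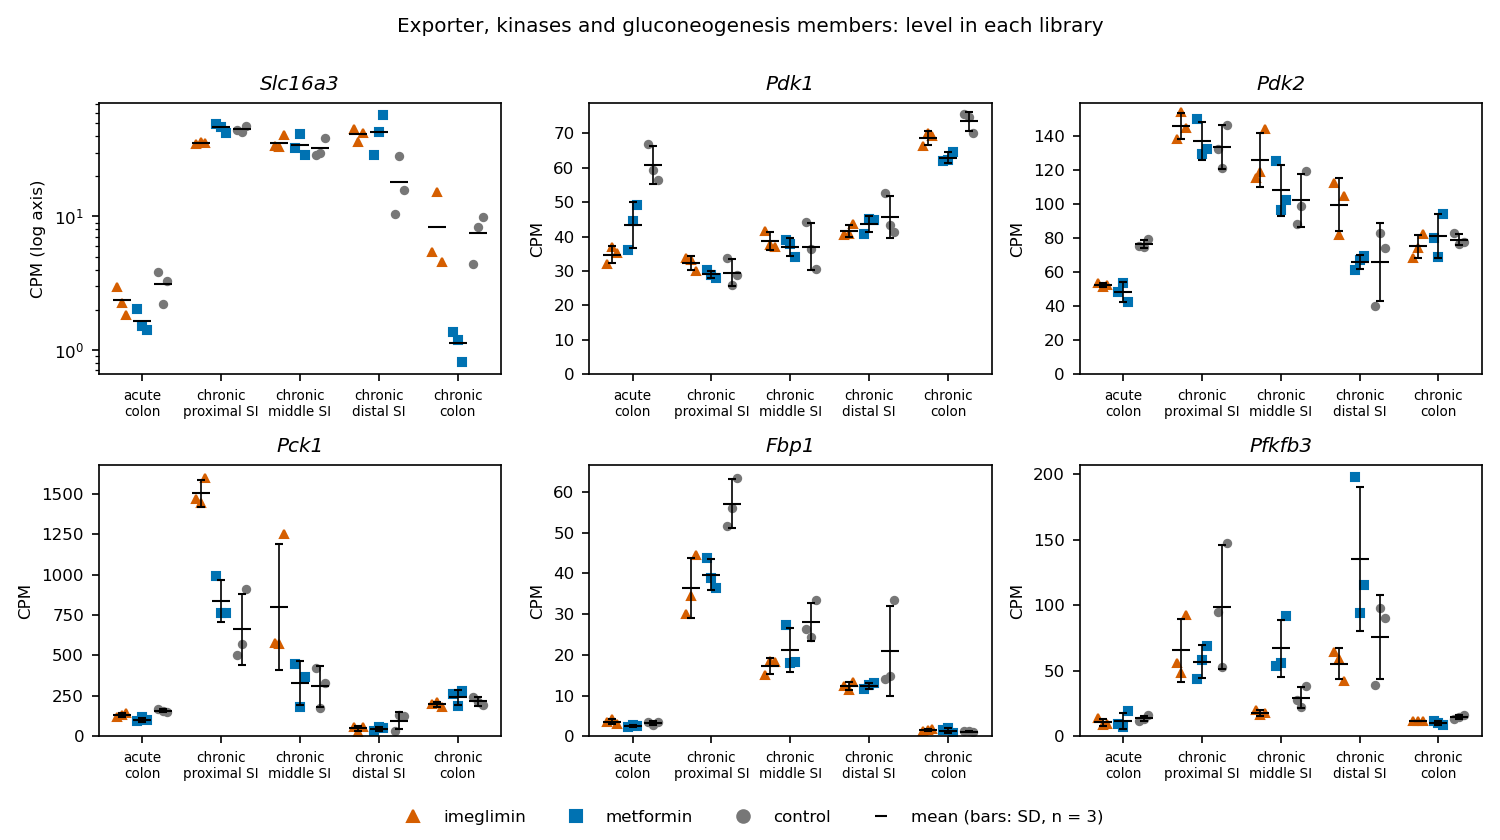
Level of Slc16a3 (log axis), Pdk1, Pdk2, Pck1, Fbp1 and Pfkfb3 (axes from 0) in CPM in each library of the 5 tissues, with imeglimin (triangles), metformin (squares) and control (circles). Lines show the mean and bars the SD of 3 libraries, without bars for Slc16a3. In chronic colon the metformin libraries of Slc16a3 lie at 0.812 to 1.36 CPM, below imeglimin at 4.56 to 15.2 CPM and controls at 4.40 to 9.84 CPM, and in proximal small intestine the imeglimin libraries of Pck1 lie at 1444 to 1600 CPM, above controls at 504 to 910 CPM.

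Pfkfb4 had the largest rise of the members called higher in each colon comparison. It encodes 1 of the bifunctional enzymes that make and remove the regulatory fructose bisphosphate that activates phosphofructokinase. In chronic colon it had 68.0, 68.8 and 90.8 CPM with imeglimin, 69.6, 90.6 and 94.2 CPM with metformin, and 39.1, 31.7 and 34.6 CPM in controls. The changes were 1.11 ± 0.15 (adjusted p 0.00369) for imeglimin and 1.27 ± 0.15 (adjusted p 0.000583) for metformin. In acute colon Pfkfb4 had 81.4, 83.1 and 91.5 CPM with imeglimin, 98.6, 81.0 and 82.6 CPM with metformin, and 43.9, 40.5 and 37.3 CPM in controls. The changes were 1.07 ± 0.10 (adjusted p 6.72e-05) for imeglimin and 1.11 ± 0.10 (adjusted p 0.000122) for metformin, and no treated library overlapped a control in either experiment. The related enzymes did not share this rise. Pfkfb3 fell in chronic colon with metformin (−0.54 ± 0.13, adjusted p 0.0185) and stood at −0.38 ± 0.13 (adjusted p 0.0859) with imeglimin. The Pfkfb3 call was lost without control replicate 2 (0.0525) or 3 (0.0761), or metformin replicate 2 (0.0675) or 3 (0.0656). It was also lost in a fit of all 36 chronic libraries (0.341). Pfkfb2 fell in acute colon with imeglimin (−0.40 ± 0.12, adjusted p 0.0236, and up to 0.102 when control replicate 1 or 3 or imeglimin replicate 2 or 3 was left out), and Pfkfb1 was called for neither drug in any of the 5 tables.

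At the pyruvate dehydrogenase step, Dlat and Pdhb rose with both drugs in both colon experiments, and the kinase genes Pdk1 and Pdk2 fell with both drugs in acute colon. Dlat, the E2 subunit, had 124, 103 and 119 CPM with chronic imeglimin, 132, 142 and 144 CPM with chronic metformin, and 80.2, 80.9 and 82.1 CPM in controls. The changes were 0.51 ± 0.08 (adjusted p 0.00537) for imeglimin and 0.78 ± 0.08 (adjusted p 0.000328) for metformin, with all treated libraries above all controls. In acute colon Dlat had 86.2, 94.9 and 86.5 CPM with imeglimin, 105, 105 and 119 CPM with metformin, and 61.1, 59.5 and 60.2 CPM in controls. These changes were 0.57 ± 0.085 (adjusted p 0.000709) for imeglimin and 0.86 ± 0.085 (adjusted p 0.000143) for metformin. Pdhb, the E1 beta subunit, had 113, 96.9 and 112 CPM with chronic imeglimin, 136, 139 and 134 CPM with chronic metformin, and 77.5, 90.1 and 80.6 CPM in controls. Its changes were 0.37 ± 0.083 (adjusted p 0.0188) for imeglimin and 0.72 ± 0.084 (adjusted p 0.000583) for metformin. The imeglimin call on Pdhb was lost without control replicate 1 (0.0651) or 3 (0.0705), or imeglimin replicate 1 (0.0585) or 3 (0.0548). In acute colon Pdhb had 118, 147 and 136 CPM with imeglimin, 123, 151 and 129 CPM with metformin, and 93.4, 85.4 and 79.7 CPM in controls, for changes of 0.63 ± 0.11 (adjusted p 0.00184) for imeglimin and 0.64 ± 0.11 (adjusted p 0.00316) for metformin.

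Pdha1, the E1 alpha subunit that the kinases phosphorylate, rose in chronic colon, at 0.40 ± 0.074 (adjusted p 0.0097) for imeglimin and 0.57 ± 0.075 (adjusted p 0.00095) for metformin. In acute colon it stood at −0.09 ± 0.12 (adjusted p 0.623) for imeglimin and 0.14 ± 0.12 (adjusted p 0.424) for metformin. Dld, the E3 subunit shared with other complexes, rose in chronic colon with imeglimin (0.61 ± 0.077, adjusted p 0.00325) and metformin (0.58 ± 0.077, adjusted p 0.0011). In acute colon Dld was called for metformin (0.38, adjusted p 0.0439), and this was lost without control replicate 2 (0.0889) or 3 (0.157), without any metformin library (0.0725 to 0.089) and with the replicate block (0.0647). The kinase gene Pdk1 fell in acute colon, to 32.0, 36.9 and 35.3 CPM with imeglimin and 36.1, 44.7 and 49.2 CPM with metformin, against 67.0, 59.3 and 56.4 CPM in controls. The changes were −0.81 ± 0.12 (adjusted p 0.000746) for imeglimin and −0.49 ± 0.12 (adjusted p 0.0172, and 0.0573 without control replicate 1) for metformin. Pdk2 fell in acute colon to 53.8, 51.1 and 52.5 CPM with imeglimin and 48.2, 54.0 and 42.3 CPM with metformin, against 75.6, 74.9 and 79.6 CPM in controls. Its changes were −0.55 ± 0.097 (adjusted p 0.0017) for imeglimin and −0.67 ± 0.097 (adjusted p 0.00102) for metformin, with no overlap. In chronic colon Pdk1 was called for metformin at −0.22 ± 0.062 (adjusted p 0.0311), and this was lost without metformin replicate 1 (0.088), 2 (0.102) or 3 (0.0671), without control replicate 1 (0.088), 2 (0.0889) or 3 (0.05), and with the replicate block (0.0606). The chronic Pdk1 call also ended in a fit of all 36 chronic libraries (adjusted p 0.162). Pdk3 was not called against control in either colon table. It was called higher with chronic imeglimin in a fit of all 36 chronic libraries.

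Of the 4 gluconeogenic members tested in the colon, metformin raised 1 and lowered 1 in acute colon and raised 1 in chronic colon, and imeglimin had no call in either. Pck1, the cytosolic phosphoenolpyruvate carboxykinase, fell in acute colon with metformin, to 93.4, 118 and 98.2 CPM, against 169, 156 and 152 CPM in controls (−0.62 ± 0.11, adjusted p 0.00267). With imeglimin it had 122, 130 and 142 CPM (−0.27 ± 0.11, adjusted p 0.0684), also below all controls. The mitochondrial form Pck2 was called higher in acute colon with metformin (0.38 ± 0.12, adjusted p 0.0417), and leaving out control replicate 1 or 3 or any metformin library ended this call (0.0627 to 0.13). Fbp2, the muscle-type fructose bisphosphatase, was called higher in chronic colon with metformin (0.21 ± 0.061, adjusted p 0.0367), and it lost the call without any control library, without metformin replicate 1 or 2 (0.0598 to 0.117) and with the replicate block (0.0519). The Fbp2 call also ended in a fit of all 36 chronic libraries (adjusted p 0.276). Khk, the ketohexokinase that starts fructose use, and Fbp1 were called in no colon comparison.

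Acute and chronic colon had separate controls, so their calls can be set side by side. For imeglimin, all 11 members called higher in acute colon were also called higher in chronic colon, which is 100% of the acute and 73.3% of the 15 chronic calls. Over all genes, 730 were called higher in both, or 22% of the acute and 49.1% of the chronic calls. For metformin, 9 were called higher in both, which is 81.8% of the 11 acute and 56.2% of the 16 chronic calls, against 36.7% and 35.1% over all genes. Of the members called lower, Pdk1 and Slc16a3 were shared for metformin, or 40% of the 5 calls in each experiment, against 24.1% of the acute and 24.6% of the chronic calls over all genes. Chronic imeglimin had no lower call to share. These shares are a description, with no test. The difference between the acute and the chronic effect was tested in 1 fit of the 18 colon libraries, whose tables were counted separately. The control libraries of the experiments also differed in tissue markers, with 9125 to 11310 CPM in acute against 1229 to 1555 CPM in chronic controls over the colon markers and 462 to 564 CPM against 48.4 to 107 CPM over the enterocyte markers, and their part in the differences was not tested. For imeglimin 5 members were called, all with the acute effect lower (8.72% of all genes were called in that direction, 7.56% in the other and 16.3% in either). These were Pdk1 (−0.74 ± 0.14), Pdk2 (−0.50 ± 0.15), Pfkfb2 (−0.52 ± 0.14), Pdha1 (−0.51 ± 0.14) and Aldoc (−0.60 ± 0.20). For metformin 3 members were called, again with the acute effect lower (3.90% of genes in that direction, 2.32% in the other and 6.22% in either). They were Pck1 (−0.81 ± 0.18), Pdk2 (−0.74 ± 0.15) and Pkm (−0.62 ± 0.15). Each call was lost without at least 1 replicate number. Without replicate 3 the adjusted p for imeglimin was 0.388 for Aldoc, 0.186 for Pfkfb2, 0.19 for Pdk2 and 0.148 for Pdha1, and without replicate 2 it was 0.0652 for Pdk1. For metformin it was 0.201 for Pkm, 0.23 for Pdk2 and 0.338 for Pck1 without replicate 3. Further members with the smallest p did not pass, among them Dld for imeglimin (−0.42 ± 0.14, adjusted p 0.0521), and Pdha1 (−0.46 ± 0.14, 0.0582), Aldoa (−0.35 ± 0.11, 0.0725) and Ldhb (−0.69 ± 0.22, 0.0735) for metformin.

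Imeglimin and metformin were compared directly at the same time in each tissue, over the 35 or 36 members tested, with p adjusted over all genes. Both were given at 600 mg/kg in the acute and at 3 mg/mL of drinking water in the chronic experiment. For the chronic tissues no dose in mg/kg was given. In chronic colon 1 member was called, Slc16a3, which was higher with imeglimin by 2.91 ± 0.50 on the log2 scale (95% interval 1.80 to 4.02, adjusted p 0.0427), where 0.145% of all genes were called higher and 0.466% lower. This call was lost without imeglimin replicate 1 (adjusted p 0.0569) or 2 (0.088), or metformin replicate 1 (0.072), 2 (0.11) or 3 (0.146). With the replicate block, 2 members were called. Pfkl was higher with imeglimin in every library, by 0.48 (95% interval 0.26 to 0.70, adjusted p 0.064). Pdhb was lower with imeglimin in every library, by −0.34 (−0.53 to −0.16, adjusted p 0.0841). In acute colon no member was called by edgeR, which called 0.645% of all genes, and 4 members had an unadjusted p under 0.05. The share of all genes at that unadjusted level was not counted. DESeq2 called 2 members there and 733 genes in all. The 3 with the smallest p there were Dlat (−0.30, interval −0.48 to −0.11, adjusted p 0.143), Pck1 (0.35, interval 0.11 to 0.58, adjusted p 0.163) and Pdk1 (−0.32, interval −0.59 to −0.05, adjusted p 0.235).

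These intervals say how large an unseen difference could be. In acute colon the interval of the difference lay within ±0.5 on the log2 scale for 26 of 35 members and within ±1 for 34. In chronic colon it lay within ±0.5 for 26 of 35 members and within ±1 for 33. In distal small intestine it lay within ±0.5 for 6 of 36 members and within ±1 for 29, so for most members the interval there held differences larger than 0.5. A call that was missed does not show that the drugs acted alike.

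The small intestine gave few calls. In proximal small intestine, imeglimin raised Pck1 and lowered Fbp1 (0.393% of all genes were called higher and 0.763% lower, 1.16% in either direction), and metformin raised Pdha1 alone (1.65% higher and 2.46% lower, 4.11% in either direction). Pck1 had 1470, 1444 and 1600 CPM with imeglimin, 989, 762 and 763 CPM with metformin, and 504, 570 and 910 CPM in controls. Every imeglimin library was above every other library, and the change was 1.19 ± 0.19 (adjusted p 0.0244) for imeglimin and 0.34 ± 0.19 (adjusted p 0.333) for metformin. Directly compared, imeglimin was higher by 0.84 ± 0.19 (95% interval 0.43 to 1.26, adjusted p 0.0613). The Pck1 call was lost without control replicate 1 (0.0786) or 2 (0.0517), or imeglimin replicate 1 (0.0617), 2 (0.0885) or 3 (0.0632).

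Fbp1, fructose bisphosphatase, had 30.1, 34.4 and 44.5 CPM with imeglimin, 43.8, 38.9 and 36.4 CPM with metformin, and 51.6, 56.1 and 63.5 CPM in proximal controls. Both drugs lay below all controls, at −0.65 ± 0.13 (adjusted p 0.0461) for imeglimin and −0.52 ± 0.13 (adjusted p 0.0515) for metformin. The imeglimin call was lost without any control library (0.076 to 0.0909), without imeglimin replicate 1 (0.121) or 2 (0.168), and with the replicate block (0.0679). Pdha1 had 215, 228 and 211 CPM with imeglimin, 230, 234 and 261 CPM with metformin, and 212, 175 and 186 CPM in proximal controls. Metformin libraries were above all others, and the change of 0.34 ± 0.083 (adjusted p 0.0446) was lost without control replicate 2 (0.104) or 3 (0.098), without any metformin library (0.0858 to 0.162) and with the replicate block (0.0748). Between the drugs, Slc16a3 was called lower with imeglimin in proximal small intestine (0.434% of genes were lower and 0.659% higher, 1.09% in either direction). It had 35.2, 36.4 and 35.7 CPM with imeglimin and 49.7, 47.2 and 42.4 CPM with metformin, with 44.6, 43.3 and 47.9 CPM in controls. The difference was −0.38 ± 0.075 (95% interval −0.54 to −0.21, adjusted p 0.04), and any single imeglimin or metformin library left out ended the call (0.0801 to 0.162), as did the replicate block (0.0857). Ldhb was next, higher with imeglimin by 0.86 (interval 0.40 to 1.32, adjusted p 0.0748), and Aldoa stood at 0.29 ± 0.073 with metformin against control (adjusted p 0.0514).

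In proximal small intestine the summed level of 10 smooth muscle markers was 1541 to 1797 CPM with imeglimin, 851 to 1147 CPM with metformin and 1369 to 1678 CPM in controls. With metformin 9 of the 10 were called lower than in controls, and 10 of 10 were called higher with imeglimin than with metformin. Their part in the changes of the members was not tested.

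In middle small intestine edgeR called no member for imeglimin (0.0279% of all genes called, 0.0167% higher and 0.0111% lower) or for metformin (0.340%, 0.290% higher and 0.0502% lower). At an unadjusted p under 0.05 there were 10 members for imeglimin and 9 for metformin. The share of all genes at that unadjusted level was not counted in this segment. DESeq2 called 4 members and 940 genes in all for imeglimin, and 4 members and 475 genes for metformin. Between the drugs edgeR called no member and 0% of all genes, with 6 members at an unadjusted p under 0.05. DESeq2 called 1 member there and 312 genes in all. Pfkfb3, the inducible bifunctional enzyme, had 20.3, 15.9 and 17.6 CPM with imeglimin, 53.4, 55.8 and 91.8 CPM with metformin, and 27.9, 22.6 and 38.3 CPM in controls. Imeglimin libraries were below all controls and metformin libraries above them, at −0.72 ± 0.24 (adjusted p 0.179) for imeglimin and 1.18 ± 0.24 (adjusted p 0.0878) for metformin. The difference between the drugs was −1.90 ± 0.25 (95% interval −2.46 to −1.35, adjusted p 0.113). Pck1 again had its highest libraries with imeglimin, at 578, 568 and 1250 CPM, against 447, 180 and 368 CPM with metformin and 424, 174 and 329 CPM in controls. The change was 1.37 ± 0.44 (adjusted p 0.169) for imeglimin and 0.10 ± 0.43 (adjusted p 0.964) for metformin. Other members with the smallest p were Pgk1 (0.40, adjusted p 0.126), Fbp1 (−0.70, adjusted p 0.129) and Aldoa (0.30, adjusted p 0.143) for imeglimin, and Pdha1 (0.36, adjusted p 0.0874) and Aldoa (0.36, adjusted p 0.148) for metformin.

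In distal small intestine metformin raised Pgk1 alone (0.592% of all genes higher and 0.0329% lower), with 18 members at an unadjusted p under 0.05. For imeglimin edgeR called no member and 0.0219% of all genes, with 6 members at an unadjusted p under 0.05. The share of all genes at that unadjusted level was not counted for either drug. DESeq2 called 0 members for imeglimin and 274 genes in all. Pgk1 had 256, 234 and 247 CPM with imeglimin, 301, 339 and 419 CPM with metformin, and 180, 223 and 188 CPM in controls. The groups did not overlap, and the metformin change was 0.84 ± 0.14 (adjusted p 0.0476), which was lost without any control library (0.105 to 0.127), without metformin replicate 2 (0.166) or 3 (0.184) and with the replicate block (0.161). Pgam1 had 104, 110 and 105 CPM with imeglimin, 124, 151 and 156 CPM with metformin, and 99.9, 98.3 and 94.9 CPM in controls (metformin 0.56 ± 0.098, adjusted p 0.0516). Aldoa had 430, 404 and 413 CPM with imeglimin, 464, 577 and 594 CPM with metformin, and 328, 372 and 299 CPM in controls (metformin 0.71 ± 0.14, adjusted p 0.0655). In both genes every metformin library was above every imeglimin and control library.

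Between the drugs edgeR called no member and 0.0494% of all genes in distal small intestine, with 11 members at an unadjusted p under 0.05. The share of all genes at that unadjusted level was not counted. DESeq2 called 4 members there and 222 genes in all. The smallest p belonged to Pgam1 (−0.43, interval −0.66 to −0.21, adjusted p 0.316), Slc16a1 (−0.53, interval −0.85 to −0.21, adjusted p 0.375) and Pfkp (−0.63, interval −1.02 to −0.25, adjusted p 0.375), all lower with imeglimin. The exporter Slc16a3 had 45.2, 35.9 and 42.4 CPM with imeglimin, 29.1, 42.9 and 57.5 CPM with metformin, and 10.4, 28.3 and 15.7 CPM in controls. All treated libraries lay above all controls, at 1.18 ± 0.36 (adjusted p 0.354) for imeglimin and 1.25 ± 0.36 (adjusted p 0.161) for metformin. Pdk2 stood at 0.60 ± 0.24 (adjusted p 0.458) and Fbp1 at −0.75 ± 0.31 (adjusted p 0.458) for imeglimin. Control replicate 1 stood apart in this segment, with 9146 CPM over the enterocyte markers, against 18080 to 26790 CPM in the other 8 libraries. Without it 0 members were called for metformin, as was also the case without control replicate 2 or 3 or metformin replicate 2 or 3. The 10 smooth muscle markers summed to 1243 to 2358 CPM with imeglimin, 1188 to 2006 CPM with metformin and 2200 to 2939 CPM in controls, with none called in this table. The 6 skeletal muscle markers summed to 109 to 183 CPM with imeglimin, 235 to 538 CPM with metformin and 21.2 to 69.2 CPM in controls, with 1 of the 3 tested called higher for metformin. The part of these markers in the members' changes was not tested.

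The distal result differed in a fit of all 36 chronic libraries, which was chosen after seeing the data. That fit shares 1 spread over the segments, scales the libraries jointly and tests 20053 genes, against 18233 for this segment alone, and which of these moved the calls was not tested. In it metformin raised 16 and lowered 2 members in distal small intestine (7.07% of genes higher and 3.61% lower, 2142 genes against 114 in the fit of this segment alone), and 7 of 10 smooth muscle markers were called lower. Those raised were Gpi1, Pfkl, Pfkp, Aldoa, Tpi1, Gapdh, Pgk1, Pgam1, Pkm, Ldha, Slc16a3, Pfkfb2, Pdha1, Pdhb, Dlat and Dld, and those lowered were Ldhb and G6pc. The same fit called 3 members for imeglimin, Aldoa (0.34 ± 0.088, adjusted p 0.0284), Slc16a3 (1.204 ± 0.34, adjusted p 0.043) and Pdk2 (0.62 ± 0.18, adjusted p 0.0464), where 2.21% of genes were called higher and 1.41% lower. Between the drugs it called 8 members lower with imeglimin (1.05% of genes lower and 0.469% higher), from Pfkfb3 at −1.29 to Dld at −0.36. In proximal small intestine this fit ended the imeglimin calls on Pck1 (adjusted p 0.231) and Fbp1 (0.333). It also ended the metformin call on Pdha1 there (0.0578) and the call on Slc16a3 between the drugs (0.717).

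G6pc, which releases free glucose at the end of gluconeogenesis, had its reads in the small intestine alone. In proximal small intestine it had 70.2, 40.2 and 119 CPM with imeglimin, 58.4, 40.6 and 16.6 CPM with metformin, and 75.0, 88.7 and 171 CPM in controls. Metformin libraries were below all controls and imeglimin libraries overlapped them, at −0.54 ± 0.46 (adjusted p 0.6) for imeglimin and −1.53 ± 0.47 (adjusted p 0.0903) for metformin. In distal small intestine it had 2.23, 0.714 and 4.44 CPM with imeglimin, 0, 0.325 and 0.404 CPM with metformin, and 4.25, 3.99 and 9.02 CPM in controls. Metformin libraries again held the lowest values, with 25 reads in the whole group, against 258 with imeglimin and 633 in controls (metformin −4.60 ± 1.0, adjusted p 0.099). In middle small intestine the groups overlapped, with 13.7 to 34.0 CPM for imeglimin, 2.38 to 24.0 CPM for metformin and 18.2 to 49.4 CPM for controls.

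**Figure D4:**
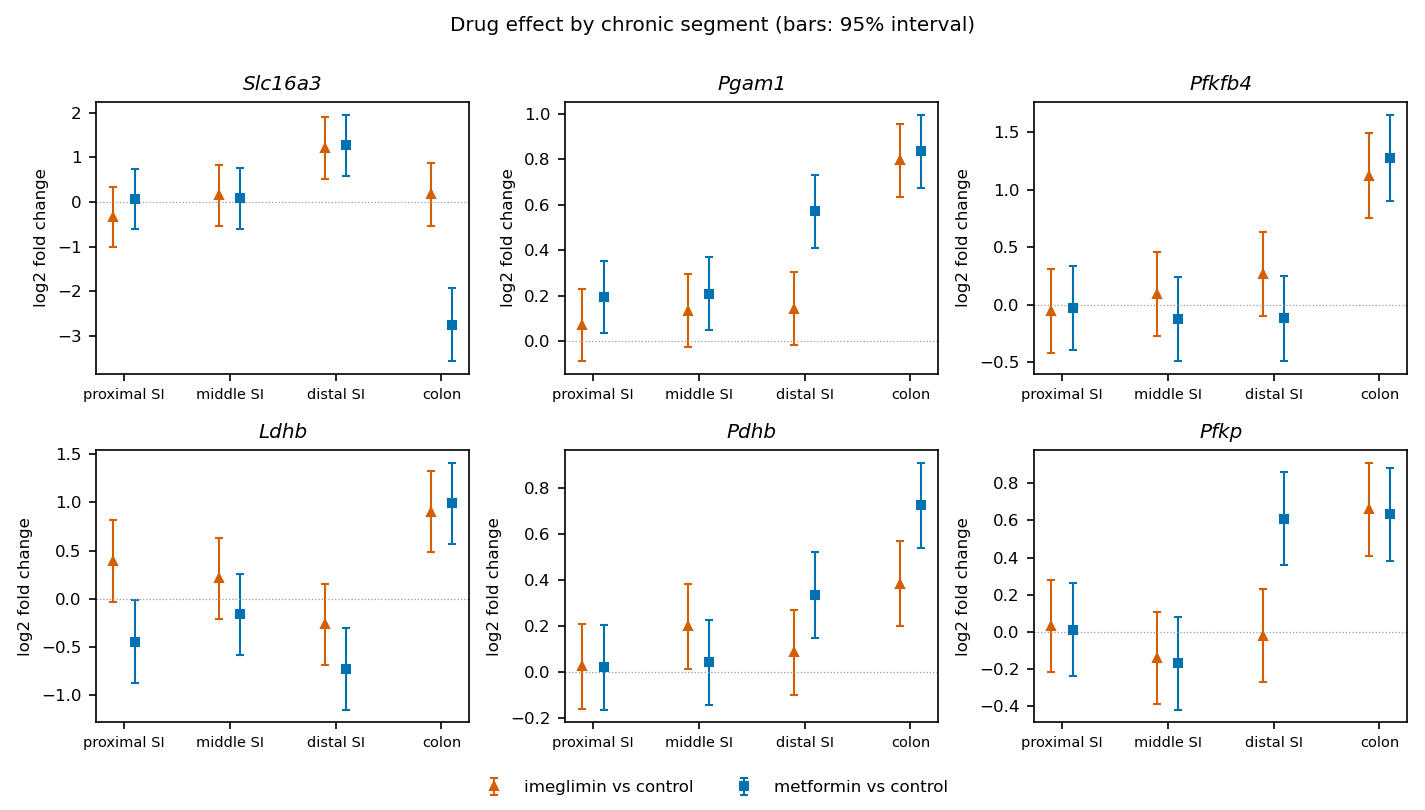
Log2 fold change against control (vertical axis) of Slc16a3, Pgam1, Pfkfb4, Ldhb, Pdhb and Pfkp in the 4 chronic segments (horizontal axis), for imeglimin (triangles) and metformin (squares), from the fit of all 36 chronic libraries. Bars are 95% intervals and the dotted line marks no change. Pgam1 and Pfkfb4 show their largest effects in colon for both drugs, at 0.80 and 1.12 for imeglimin and 0.84 and 1.28 for metformin, and Slc16a3 with metformin has opposite signs in distal small intestine (1.27) and colon (−2.75).

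Whether an effect differed along the gut was tested as 1 interaction over the 4 chronic segments, whose tables were counted separately. This test, and that of the control segments below, treated the 36 libraries as independent, though segments may share mice. The imeglimin effect differed for 5 members (2.96% of all genes) and the metformin effect for 11 (4.03%). For imeglimin, Pgam1 moved by 0.07, 0.13, 0.14 and 0.80 from proximal to colon (adjusted p 0.000735), Pfkp by 0.03, −0.14, −0.02 and 0.66 (0.0217) and Pfkfb4 by −0.06, 0.09, 0.27 and 1.12 (0.0228). In these genes the colon stood alone. Pck1 moved the other way along the gut, by 1.19, 1.38, −0.98 and −0.13 (0.0303), and Dld by 0.05, 0.20, 0.07 and 0.62 (0.0312). Ldhb, next in order, moved by 0.39, 0.21, −0.26 and 0.90 and was not called. For metformin, Slc16a3 moved by 0.06, 0.08, 1.27 and −2.75 (adjusted p 0.000173). Pgam1 moved by 0.20, 0.21, 0.57 and 0.84 (0.000876), Pfkfb4 by −0.03, −0.13, −0.12 and 1.28 (0.00146) and Ldhb by −0.44, −0.16, −0.73 and 0.99 (0.00202). Pdhb moved by 0.02, 0.04, 0.33 and 0.72 (0.00209) and Pfkp by 0.01, −0.17, 0.61 and 0.63 (0.00451), so distal small intestine and colon shared the larger values. None of these calls held through every replicate number left out. All genes called fell too, to between 6 and 58 for imeglimin, against 594 in the main fit. For metformin they fell to between 73 and 313, against 809. Without replicate 3 the adjusted p was 0.407 to 0.446 for Pfkp, Pfkfb4, Pck1 and Dld and 0.259 for Pgam1 with imeglimin, and with metformin 0.127 for Slc16a3, 0.199 for Pgam1, 0.218 for Pfkfb4, 0.227 for Pdhb and 0.309 for Pfkp. Ldhb with metformin reached 0.111 without replicate 2.

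The members also differ along the untreated gut. The CPM given for this comparison are scaled over all 36 chronic libraries and so differ from those scaled within each table. Among controls of the chronic experiment, 33 of 37 members differed between the 4 segments (59.2% of all genes did), and Ldhb, Pdha1, Pck2 and Pgam2 did not pass. The mean was highest in proximal small intestine for 23 members and in colon for 10, and 14 of 37 fell at every step from proximal to colon. From proximal to middle small intestine 12 members fell and 0 rose (4.37% and 2.33% of genes), from middle to distal 15 fell and 2 rose (6.65% and 3.32%), and from distal to colon 15 fell and 10 rose (23.6% and 21.4%).

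Khk of fructose use and the gluconeogenic Fbp1 and G6pc fell steeply, while the gluconeogenic Pck2 was not called between segments (adjusted p 0.938). Khk had 322, 406 and 400 CPM in proximal, 164, 218 and 279 CPM in middle and 63.8, 98.1 and 105 CPM in distal small intestine, and 11.8, 10.6 and 11.05 CPM in colon. No segment overlapped the next, and colon was below proximal by −5.08 ± 0.21 (adjusted p 1.25e-17). Fbp1 had 59.7, 65.5 and 74.1 CPM in proximal, 28.2, 26.5 and 36.5 CPM in middle and 13.3, 14.2 and 31.9 CPM in distal small intestine, and 1.03, 0.971 and 0.82 CPM in colon. Middle and distal overlapped, with an adjusted p of 0.136 between them. G6pc held 12265 reads over the proximal, 4291 over the middle and 633 over the distal control group and 0 in colon. Against a floor of 3 counts over the colon group this was at least 6220-fold, 1780-fold and 263-fold higher than in colon. Pck1 averaged 770, 335, 92.1 and 177 CPM from proximal to colon, with middle not called apart from proximal (adjusted p 0.0685) nor colon from distal (0.0541). The liver-type Pklr was lower in colon than in proximal by −3.07 and Slc16a3 by −3.10 on the log2 scale.

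**Figure D5:**
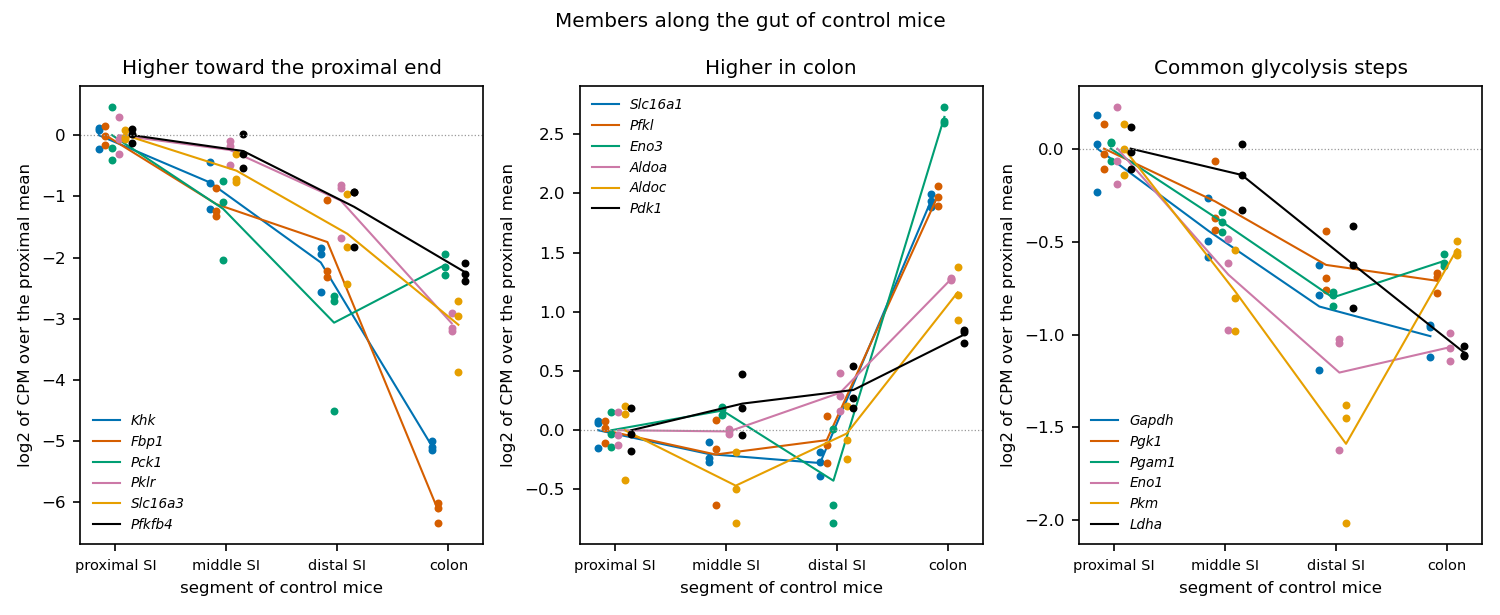
Level of selected members in control libraries along the gut, as log2 of CPM over the proximal mean (vertical axes), by segment from proximal small intestine to colon (horizontal axes). Points are libraries, lines join the segment means, and the dotted line marks the proximal mean. The fitted colon level relative to proximal is −5.08 for Khk and −6.14 for Fbp1, Slc16a1, Pfkl and Eno3 are higher in colon than in any small intestine segment, and Pkm is lowest in distal small intestine.

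A smaller group was highest in colon. Slc16a1 had 95.6, 94.5 and 81.9 CPM in proximal, 75.2, 76.9 and 84.5 CPM in middle and 79.9, 75.1 and 69.5 CPM in distal small intestine, and 361, 348 and 335 CPM in colon. The small intestine segments did not differ from their neighbours (adjusted p 0.335 and 0.782), and colon was above distal by 2.22. Pfkl had 38.5, 33.8 and 36.9 CPM in proximal, 38.7, 23.4 and 32.6 CPM in middle and 33.3, 30.1 and 39.7 CPM in distal small intestine, and 143, 152 and 135 CPM in colon, 2.06 above distal. Eno3 had 13.8, 16.9 and 14.9 CPM, then 16.6, 17.2 and 17.4 CPM, then 8.81, 9.80 and 15.3 CPM in the small intestine segments and 92.8, 91.6 and 101 CPM in colon, 3.08 above distal. Aldoa had 247, 233 and 282 CPM, then 253, 248 and 256 CPM, then 310, 355 and 284 CPM, and 612, 619 and 616 CPM in colon, 0.96 above distal. Pfkfb4 went the other way along the gut, with a mean of 28.8 ± 3.06 CPM in control colon against 136 ± 10.5 CPM in proximal small intestine (SD, n = 3 each). Smooth muscle markers also changed along this axis, with 9 of 10 called higher and 1 lower in colon than in proximal small intestine, and their part in these differences was not tested.

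The neighbours of the pathway were taken from lists of 31 other genes of glucose, pyruvate and lactate handling, 7 pentose phosphate genes and 16 citric acid cycle genes. In chronic colon, imeglimin raised 11 and lowered 0 of the 30 other pathway genes tested, 4 of 7 pentose phosphate genes and 13 of 16 citric acid cycle genes (7.97% of all genes were called higher). Metformin raised 11 and lowered 1 of the other pathway genes and raised 4 pentose phosphate genes and 15 cycle genes (11.6% of all genes higher). The cycle's median log2 change was 0.47 for imeglimin and 0.608 for metformin. The hexokinase-like gene Hkdc1 rose by 3.14 ± 0.30 with imeglimin and 2.74 ± 0.30 with metformin. In acute colon, imeglimin raised 11 and lowered 4 of the other pathway genes, raised 3 pentose phosphate genes and 5 of 16 cycle genes (18.1% of all genes higher and 15.1% lower), and metformin raised 9 and lowered 2 of the other pathway genes and raised 1 pentose phosphate gene and 7 of 16 cycle genes (11.3% higher and 8.37% lower). There the kinase gene Pdk4 rose by 2.20 ± 0.29 with imeglimin (adjusted p 0.000326) and 2.54 ± 0.29 with metformin (adjusted p 0.0003), against the direction of Pdk1 and Pdk2. The pentose phosphate isomerase gene Rpia rose by 0.70 ± 0.096 with imeglimin and 0.51 ± 0.096 with metformin. No gene of these lists was called between the drugs in either colon experiment.

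Markers of cell types and segments moved with some colon groups. In chronic colon the summed level of 9 proliferation genes was 334 to 462 CPM with imeglimin, 246 to 335 CPM with metformin and 166 to 244 CPM in controls, with 6 of 9 called higher for imeglimin and 3 of 9 for metformin. The 10 smooth muscle markers summed to 4334 to 6002 CPM with imeglimin, 3997 to 4490 CPM with metformin and 5757 to 6001 CPM in controls, with 0 of 10 called lower for imeglimin and 7 of 10 for metformin. The 6 skeletal muscle markers summed to 13.7 to 17.8 CPM with imeglimin, 79.4 to 110 CPM with metformin and 11.6 to 13.7 CPM in controls, and of the list the metformin call was on Acta1 alone (3.95 ± 0.23). The 10 epithelial markers summed to 14230 to 15910 CPM with imeglimin, 14770 to 15810 CPM with metformin and 12500 to 13780 CPM in controls, with 1 of 10 called higher for imeglimin and 6 of 10 for metformin. Control replicate 3 held 16490 CPM over 7 pancreatic acinar markers, against at most 1.16 CPM in the other 8 libraries. Without it 11 members were called for imeglimin (932 genes in all, against 2433 in the main fit) and 17 for metformin (2106 against 3669). Leaving out control replicate 1 or 2 instead gave 12 or 15 members for imeglimin and 17 or 16 for metformin. In acute colon, metformin replicate 2 held 1887 CPM over the smooth muscle markers, against 4679 to 7414 CPM in the other 8 libraries, and without it 14 members were called for metformin. Leaving out metformin replicate 1 or 3 instead gave 12 members each. In acute colon 6 of 9 proliferation genes were called higher with each drug and 1 lower with imeglimin. The 3 proximal markers there summed to 69.7 to 86.6 CPM with imeglimin, 79.8 to 123 CPM with metformin and 247 to 366 CPM in controls, with 1 of 3 called lower for each drug. The 2 distal markers summed to 215 to 280 CPM with imeglimin, 133 to 280 CPM with metformin and 306 to 633 CPM in controls, with 1 called lower for metformin. The 5 erythrocyte markers summed to 27.7 to 35.1 CPM with imeglimin, 27.7 to 30.9 CPM with metformin and 16.8 to 22.1 CPM in controls, with 3 of 5 called higher for each drug. The part of these markers in the members' changes was not tested.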

How the data were processed

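Whole intestine RNA was sequenced with a stranded poly(A) kit, per the labels' protocols. The values are the authors' deposited read counts per gene symbol, 1 table for each of 5 tissues with 9 libraries each. Per the submitters' processing notes, the tools were Cell Ranger, FastQC, HISAT2, StringTie and Trimmomatic and the builds GRCm39 and mm10, with no role stated for any. The sources used here do not say whether counting used strand. In chronic colon, 26 symbols had been turned into dates, none of them a member.

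From the counts, each table was fitted in edgeR 4.0.16 (R 4.3.3) with TMM scaling, the filterByExpr filter (minimum count 10, minimum total 15) and the quasi-likelihood F test with 1 term per group. P-values were adjusted by Benjamini and Hochberg over all genes tested. SE is the log2 fold change over the root of F. Effects along the gut were tested over 36 libraries (20053 genes) and acute against chronic over 18 (19369 genes), although these tables were counted separately. Alternatives were RLE scaling, no filter (at least 1 read), the replicate number as a block, DESeq2 1.42.0, only the 2 groups compared, and each replicate left out. The fit of 36 libraries for the segment comparisons was added after seeing the data. The procedure was tested on simulated data.

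The labels give a batch tag equal to the replicate number, which by itself does not show that same-numbered libraries are paired. Their deviations from the group means correlated on average by between −0.132 (distal small intestine) and 0.0687 (chronic colon), with single pairs from −0.621 to 0.271.

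The members and lists were chosen with earlier results of these data known. Members named with every library were, in each comparison, up to 6 called members with the largest absolute change, or the 3 with the smallest p where fewer than 3 were called, and in the interactions the 6 with the smallest p. Others are named where their role or a lost call asked for it, after their values were seen. A single-cell sample pooling the 3 treatments has no group and is not used here.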

Additional observations from a re-analysis of the deposited data

Results flagged for a closer look

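The members below stood out because the effect of a drug differed between segments or between the acute and the chronic colon, by a test of that difference. The values are adjusted p.

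The imeglimin effect differed across the 4 chronic segments for Pgam1 (0.000735), Pfkp (0.0217), Pfkfb4 (0.0228), Pck1 (0.0303) and Dld (0.0312). The metformin effect differed across them for Slc16a3 (0.000173), Pgam1 (0.000876), Pfkfb4 (0.00146), Ldhb (0.00202), Pdhb (0.00209), Pfkp (0.00451), Pgk1 (0.00758), Pfkfb3 (0.0168), Gapdh (0.0264), Pck2 (0.0449) and Pfkl (0.0477). Slc16a3 kept its call except without replicate 3 (0.127), and each of the others lost it without 1 or more replicate numbers, up to 0.621 for Gapdh without replicate 3. All genes called fell in the same fits, to 6 to 58 for imeglimin (594 in the main fit) and 73 to 313 for metformin (809).

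The imeglimin effect was lower in acute than in chronic colon for Pdk1 (0.00205), Pfkfb2 (0.0163), Pdha1 (0.0194), Pdk2 (0.0299) and Aldoc (0.0497). The metformin effect was lower in acute than in chronic colon for Pdk2 (0.00796), Pck1 (0.0153) and Pkm (0.0196). The acute and chronic experiments also differed in dose, route and sampling time, and their control colons in tissue markers. Acute against chronic controls held 9125 to 11310 CPM against 1229 to 1555 CPM over 4 colon markers, 306 to 633 CPM against 5.57 to 12.1 CPM over 2 distal markers and 462 to 564 CPM against 48.4 to 107 CPM over 8 enterocyte markers. These cannot be told apart.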

How the results depend on the processing

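No named value reversed under any alternative run. Members called in the main fit and in every alternative numbered 12 of 16 for imeglimin and 8 of 16 for metformin in acute colon, 11 of 15 for imeglimin and 16 of 21 for metformin in chronic colon, and 30 of 33 between control segments. In the small intestine, between the drugs and in the interactions, 0 did. RLE scaling moved the median of all genes by −0.0184 to 0.0157 on the log2 scale.

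The numbers of members called that moved by over 1.5 times were as follows, and the cause was not tested. Brackets give all genes called under that setting against the main fit. With DESeq2, 2 were called for imeglimin against metformin in acute colon (733 against 118 genes). In proximal small intestine they were 5 for imeglimin (819 against 200), 5 for metformin (1521 against 710) and 3 between the drugs (819 against 189). In middle small intestine they were 4 for imeglimin (940 against 5), 4 for metformin (475 against 61) and 1 between the drugs (312 against 0). In distal small intestine they were 8 for metformin (960 against 114) and 4 between the drugs (222 against 9). DESeq2 also called 5 between the drugs in chronic colon (1292 against 114) and 7 for metformin acute against chronic. In the fit of 36 chronic libraries they were 0 for imeglimin (68 against 200), 0 for metformin (207 against 710) and 0 between the drugs (131 against 189) in proximal small intestine. In the middle segment they were 2 for metformin (201 against 61) and 1 between the drugs (51 against 0). In the distal segment they were 3 for imeglimin (727 against 4), 18 for metformin (2142 against 114) and 8 between the drugs (304 against 9). Between the drugs in chronic colon 2 were called (372 against 114). With only the groups compared they were 0 for imeglimin (30 against 200) and 2 between the drugs (392 against 189) in proximal small intestine. They were 0 for metformin in distal small intestine (16 against 114) and 0 between the drugs in chronic colon (17 against 114). RLE scaling gave 1 for imeglimin in proximal (172 against 200) and 2 for metformin in distal small intestine (114 against 114). Without the filter, 0 were called for metformin in distal small intestine (74 against 114) and 3 for imeglimin acute against chronic.

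With the replicate block, 1 member was called for imeglimin (80 against 200 genes) and 0 between the drugs (94 against 189) in proximal small intestine. For metformin in distal small intestine 0 were called (17 against 114), and between the drugs in chronic colon 2 (92 against 114). The fit with this block gave 15 for imeglimin (5361 against 6085) and 13 for metformin (3035 against 3607) in acute colon. In chronic colon it gave 15 for imeglimin (2059 against 2433) and 19 for metformin (3546 against 3669). Across segments it gave 5 for imeglimin and 10 for metformin, against 33 between control segments, and for acute against chronic colon 4 for imeglimin and 3 for metformin. Beside these counts and the blocked values in the results, the block ended the call on Pfkl across segments for metformin (0.0613) and on Aldoc acute against chronic for imeglimin (0.0673).

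Leaving out 1 library gave 12 to 18 members for imeglimin, 9 to 14 for metformin and 0 between the drugs in acute colon. All genes called there then numbered 4004 to 5935 for imeglimin and 2169 to 3144 for metformin, against 6085 and 3607 in the main fit. In chronic colon they numbered 932 to 1623 for imeglimin and 2066 to 3429 for metformin, against 2433 and 3669. In proximal small intestine it gave 0 to 2 for imeglimin, 0 to 3 for metformin and 0 between the drugs, and in the middle segment 0 in each comparison. For the distal segment it gave 0 for imeglimin, 0 to 3 for metformin and 0 between the drugs, and for chronic colon 11 to 15 for imeglimin, 16 to 18 for metformin and 0 to 3 between the drugs. Leaving out 1 replicate number gave 0 to 1 for imeglimin and 1 to 6 for metformin across segments, 30 to 32 between control segments, and for acute against chronic colon 0 to 3 for imeglimin and 0 to 2 for metformin. All genes called across segments then numbered 6 to 58 for imeglimin and 73 to 313 for metformin, against 594 and 809 in the main fit. Between control segments they numbered 9034 to 10222, against 11881.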
